A study of Homo sapiens with 24 samples.

Results

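The 33 genes described here build, fold, inspect and clear the proteins of the endoplasmic reticulum (ER), and were followed through 8 treatment groups of a leukaemia cell line. They were taken from a named list of ER chaperones, folding enzymes, translocon subunits and components of ER-associated degradation (ERAD). The choice was by name and function rather than by a threshold on these data, but with earlier results of these data known. All 33 had a row among the 38048 genes of the table, and all 33 were among the 16640 genes that passed the filter on low counts. Together they held 0.712% to 0.93% of the counts of a library.

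Proteins bound for secretion or for membranes enter the ER through the SEC61 channel, are folded there by HSP70 and HSP90 chaperones, sugar-binding chaperones and disulfide isomerases, and leave only once folded. Molecules that fail are marked by lectins, pulled back across the membrane by the SEL1L and SYVN1 ubiquitin ligase complex and destroyed by the proteasome, which is ERAD. When unfolded protein accumulates, the sensors IRE1, PERK and ATF6 start the unfolded protein response, which raises transcription of many of these genes through the factors XBP1, ATF6 and ATF4.

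The cells were MV4-11, an established acute myeloid leukaemia line that carries the MLL-AF4 fusion, and all were labelled wild type for PRMT5. Every group had 3 libraries, lettered A, B and C, for 24 in all. DMSO, the solvent, served as control and was labelled day 3. The other groups received PRT220 at 3 nM, GSK-LSD1 at 10 nM or both together for 3 days, MS023, MS023 with GSK-LSD1, MC4455, or MC4491. The series' title pairs PRMT5 and LSD1 inhibitors, which are respectively an arginine methyltransferase and a histone lysine demethylase, and MS023 is known as an inhibitor of type I arginine methyltransferases. No dose or time is given in the labels for MS023, its combination, MC4455 or MC4491, so effect sizes of different compounds do not compare their potency. In these groups, an effect of treatment cannot be told apart from a possible difference in time from the DMSO libraries. The labels also do not say whether the letters mark separate cultures, and p-values then measure the spread between these libraries, which may be technical.

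Libraries held 32495446 to 61090593 estimated counts, from poly(A)-selected RNA read without strand, so reads from a gene and from an antisense partner cannot be told apart. In bulk RNA, fewer cells of a type and less RNA per cell cannot be told apart either. All 8 myeloid leukaemia markers checked were present, and the summed level of T cell, B cell and erythroid marker lists stayed at or below 3.49 counts-per-million (CPM) in every library. Across groups, 8 libraries stood apart by a low level of RRP9, a gene of ribosomal RNA processing, at 0.677 to 1.73 CPM before scaling against 29.1 to 36.2 CPM in the other 16. They were DMSO C, all PRT220 libraries, combination C of PRT220 with GSK-LSD1, MS023 A and C, and B of MS023 with GSK-LSD1. The main member counts against DMSO are therefore also given without these libraries, or among them alone, where DMSO C is the only control.

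Several members carry the DNA elements through which the unfolded protein response is known to act. Carriers such as HSPA5, HYOU1, SDF2L1 and ERO1B are among the members that moved most in the comparisons that follow. MANF, PDIA4 and EDEM3 also moved strongly and held neither ERSE nor ERSE-II, the elements described below. Promoter windows from 250 bases before to 50 bases after the transcript start were taken from RefSeq (GRCh38.p14), where 31 of the 33 members were matched. The ER stress response element, ERSE, is CCAAT, then 9 bases of any kind, then CCACG. Searched on both strands, it was found in the windows of 7 members, against 0.0916% of all 27305 genes with a window. HSPA5 holds it within the 160 bases before its start, at chr9:125241344-125241503 on the minus strand, where capitals mark each CCAAT and CCACG.

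HSPA5: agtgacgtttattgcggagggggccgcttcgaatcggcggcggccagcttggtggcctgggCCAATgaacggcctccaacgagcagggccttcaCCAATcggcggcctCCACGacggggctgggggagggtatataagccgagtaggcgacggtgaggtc

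The HSPA5 stretch holds 2 copies of CCAAT and 1 of CCACG, and only the second CCAAT stands at the distance that ERSE requires. Below are further ERSE matches, in HSP90B1 (chr12:103930201-103930249, plus strand), PDIA6 (chr2:10812838-10812886, minus), CALR (chr19:12938369-12938417, plus) and ERO1B (chr1:236282168-236282208, minus). Each is written 5′ to 3′ on the strand of its gene with the fixed letters in capitals, so that a match on the opposite strand appears as CGTGG followed by ATTGG.
HSP90B1: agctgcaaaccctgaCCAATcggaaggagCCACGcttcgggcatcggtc
PDIA6: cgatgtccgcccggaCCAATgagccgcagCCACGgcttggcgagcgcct
CALR: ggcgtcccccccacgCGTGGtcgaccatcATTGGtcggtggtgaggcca
ERO1B: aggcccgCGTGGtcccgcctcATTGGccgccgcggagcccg

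A compact form, ERSE-II (ATTGG, 1 base of any kind, then CCACG; both strands), was found in 3 members and in 0.0696% of all genes. The matches lie in HERPUD1 (chr16:56932010-56932050, plus strand), HYOU1 (chr11:119057259-119057299, minus, the nearer of 2 copies) and SDF2L1 (chr22:21642099-21642139, plus).
HERPUD1: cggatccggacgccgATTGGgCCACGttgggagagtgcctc
HYOU1: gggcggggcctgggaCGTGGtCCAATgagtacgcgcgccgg
SDF2L1: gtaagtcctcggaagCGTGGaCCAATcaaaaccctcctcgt

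CREB3L2, the transcription factor of the list, held neither ERSE nor ERSE-II. Its window held a palindromic cyclic AMP response element (TGACGTCA) at chr7:138002243-138002280 on the minus strand. That element was found in 1 of the 31 matched members, near its share of 2.25% of all genes with a window.
CREB3L2: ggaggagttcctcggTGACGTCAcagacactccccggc
A C/EBP-ATF element (TGATGNAAN, where N is any base) was found in CREB3L2 and HERPUD1, beside 4.45% of all genes. An element named UPRE (TGACGTGG) was found in HYOU1 and SSR3, beside 0.927%. These matches describe letters in a window and do not show that a factor was bound. The members were listed by ER function, and ERSE and ERSE-II are elements known for the ER stress response. Their presence in members is therefore no test of enrichment.

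In the solvent control, the members spanned a wide range of levels per transcript length. P4HB, the founding protein disulfide isomerase, was the highest at 2040 ± 82.7 transcripts-per-million (TPM; SD, n = 3), followed by the lectin chaperone CALR at 1331 ± 62.0 TPM and the ER HSP90 protein HSP90B1 at 597 ± 27.0 TPM. HSPA5, the HSP70 chaperone known as BiP, was the seventh at 339 ± 22.0 TPM, and PDIA3 was next at 315.5 ± 8.92 TPM. ERAD genes ranged from OS9 at 183 ± 6.96 and EDEM1 at 177 ± 3.80 TPM down to EDEM2 at 30.2 TPM, within the range of the other roles. ERO1B, one of the 2 oxidases that recharge the disulfide isomerases, was the lowest at 3.74 ± 0.365 TPM, and its partner ERO1A stood at 94.2 ± 3.32 TPM. HYOU1 and PDIA4 are left out of this order because under 90% of their gene counts lay on transcripts paired with the annotation.

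**Figure D1:**
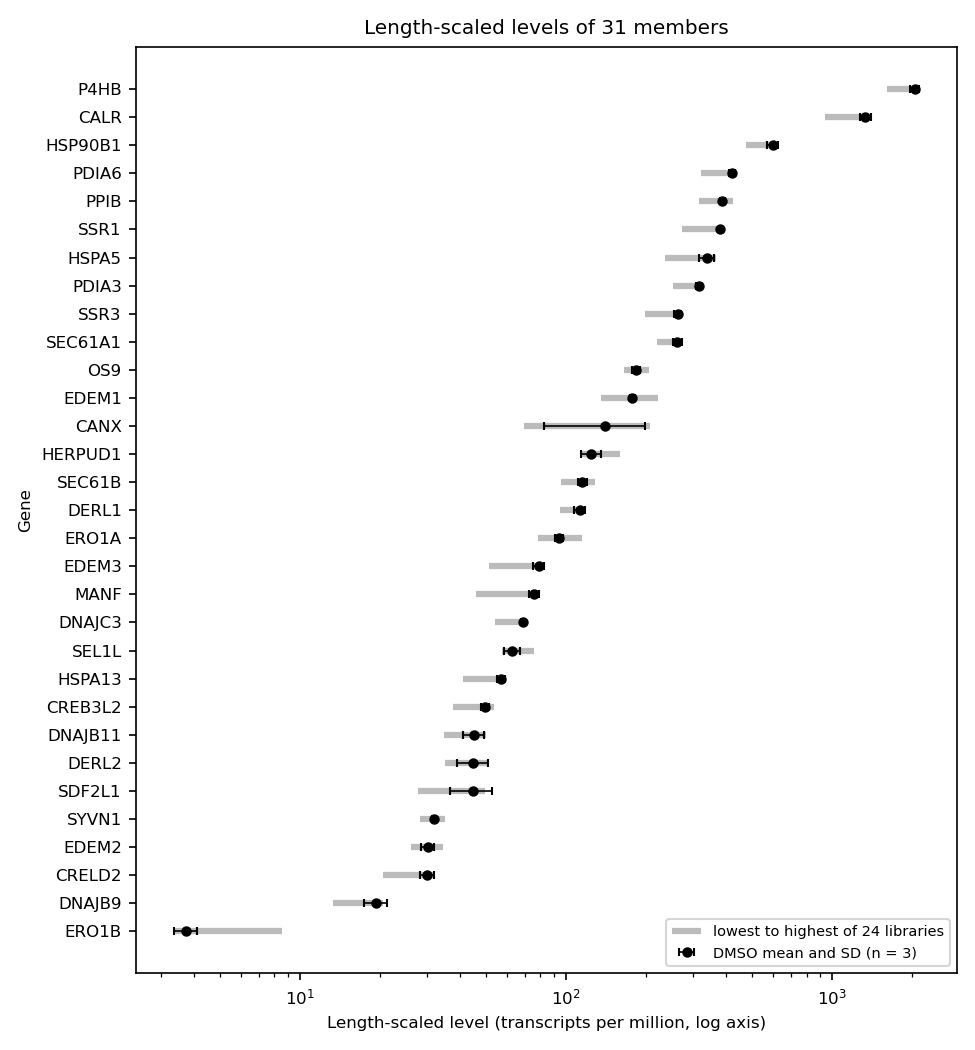
Level of 31 members in the 3 DMSO libraries, in TPM on a log axis. Points and bars are the mean and SD, and grey lines give the range over all 24 libraries. P4HB and CALR are the highest and ERO1B is the lowest.

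Most chaperone genes moved down and few genes of any role moved up. PRT220 lowered 12 members and raised none, where 11.1% of all tested genes were lower. GSK-LSD1 lowered 16 and raised 3, against 15% and 17.6% of all genes. The combination of both lowered 18 and raised 3, against 22.1% and 24.4%. MC4455 lowered 21 and raised none (19.2% of all genes lower), and MC4491 lowered 19 and raised 1 (15.2% and 15.5%). MS023 with GSK-LSD1 lowered 14 and raised 4 (23.3% and 25.1%), and MS023 alone lowered only DNAJC3 (1.36%). A member counts as called where edgeR (quasi-likelihood F-test) gave an adjusted p below 0.05, with the Benjamini-Hochberg method applied over all 16640 genes. All of these comparisons share the same 3 DMSO libraries. Within the low-RRP9 libraries, the 3 PRT220 libraries can be set only against DMSO C, a lone control assumed to vary like the other groups. In that fit 7 of the 12 PRT220 calls held, among them HSPA5, HYOU1 and ERO1A. Without those libraries, GSK-LSD1 kept 13 of its 19 calls and lost HSPA5, HYOU1, SDF2L1, DNAJB9, P4HB and PDIA3, each still negative. PRT220 with GSK-LSD1 kept 20 of its 21 calls without them, losing SYVN1, and 14 among them alone, where 1 combination library faces 1 control. MS023 with GSK-LSD1 kept 16 of its 18 calls without them, losing ERO1A and SYVN1 and gaining CANX, PDIA3 and SEL1L, and 8 among them alone, again 1 library against 1. MC4455 kept 20 of 21, losing DNAJB9, and MC4491 kept all 20.

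The changes were small. The members' median log2 fold change was −0.12 with PRT220, −0.14 with GSK-LSD1, −0.26 with both, −0.28 with MC4455 and −0.24 with MC4491, while the median over all tested genes lay between 0.00 and 0.04 in these comparisons. With MS023 the members' median was −0.05. Seen by library, every PRT220 library lay below every DMSO library in 14 members (16.7% of all genes). The same held for 18 members with GSK-LSD1 (20.4%), 20 with the combination (24.7%) and 21 with MC4455 (22.7%). Every treated library lay above every DMSO library in 2 members with PRT220 (19.9% of all genes), 3 with GSK-LSD1 (25.9%) and 3 with the combination (28.2%).

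**Figure D2:**
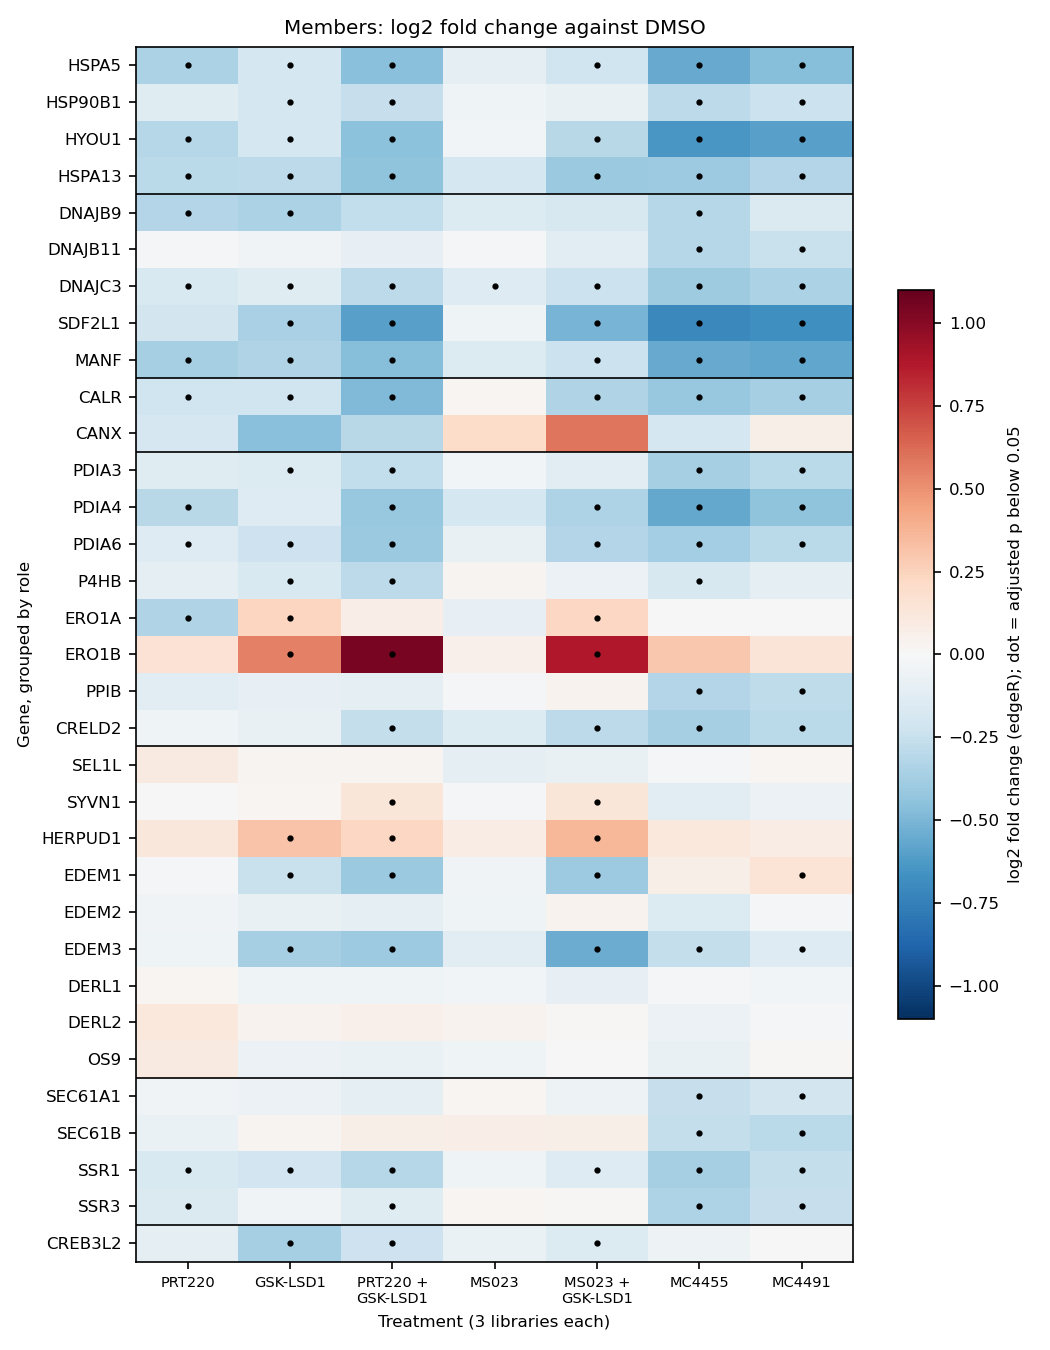
Log2 fold change of the 33 members against DMSO in each of the 7 treatments, ordered by role. Blue is lower and red is higher, and a dot marks an adjusted p below 0.05 in edgeR. The HSP70, DNAJ and isomerase rows are mostly blue, the ERAD rows are mixed, and the MS023 column holds 1 dot.

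All 4 members of the HSP70 and HSP90 group fell with GSK-LSD1, with its combination with PRT220, with MC4455 and with MC4491. Lower genes made up 15%, 22.1%, 19.2% and 15.2% of all genes in these treatments, in that order. With PRT220, 3 of the 4 fell (11.1% of all genes lower). HSPA5 (BiP; GRCh38 chr9:125234853-125241330, minus strand) binds unfolded chains and holds the stress sensors inactive. Its level was 565.7, 572.1 and 654.8 CPM in DMSO and 498.8, 459.1 and 454.3 CPM with PRT220. With GSK-LSD1 it was 533, 525 and 512.1 CPM, with both compounds 397.7, 438.3 and 467.1 CPM, and with MC4455 433.5, 394.1 and 394.5 CPM. All of these treated libraries lay below the lowest DMSO library, and DMSO C was the highest of all 24.

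The HSPA5 log2 fold change was −0.34 (SE 0.07, adjusted p = 0.00073, edgeR) with PRT220 and −0.19 (SE 0.07, adjusted p = 0.0356, edgeR) with GSK-LSD1. It reached −0.46 (adjusted p = 1.12e-05, edgeR) with both and −0.55 (adjusted p = 6.67e-06, edgeR) with MC4455. The GSK-LSD1 difference was −0.14 without DMSO C, −0.18 without GSK-LSD1 C and −0.12 without all low-RRP9 libraries, and in each case no longer called. The fall with PRT220 was −0.49 within the low-RRP9 libraries, where the only control is DMSO C, the library with the highest HSPA5.

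HSP90B1, the ER form of HSP90 (chr12:103930107-103953645), changed less. It measured 653.1, 645.4 and 647.8 CPM in DMSO, 622, 586.6 and 568.4 CPM with PRT220, and 550.5, 528.8 and 518.5 CPM with MC4455. The DMSO libraries were close together and all above both treatments. The difference was −0.13 with PRT220 (adjusted p = 0.0786, edgeR, not called), and it was called with a term for low-RRP9 libraries (−0.18), without PRT220 A (−0.18) and by DESeq2 (−0.14). It was −0.25 with the combination and −0.28 with MC4455, both called.

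HYOU1, a large HSP70 relative that swaps nucleotide on BiP (chr11:119044189-119057202), fell furthest in this group with the MC compounds. DMSO libraries held 267.6, 235.4 and 260.6 CPM, MC4455 libraries 171.3, 155.1 and 164.9 CPM, and MC4491 libraries 156.5, 161.1 and 185.9 CPM. The highest MC4491 library thus lay below the lowest control. Its log2 fold change was −0.64 (SE 0.07, adjusted p = 1.35e-06, edgeR) with MC4455, −0.60 with MC4491 and −0.45 with PRT220 and GSK-LSD1 together. HSPA13, an HSP70-like ATPase of the microsomes, fell in 6 of the 7 treatments, all but MS023, by 0.29 to 0.44 on the log2 scale.

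**Figure D3:**
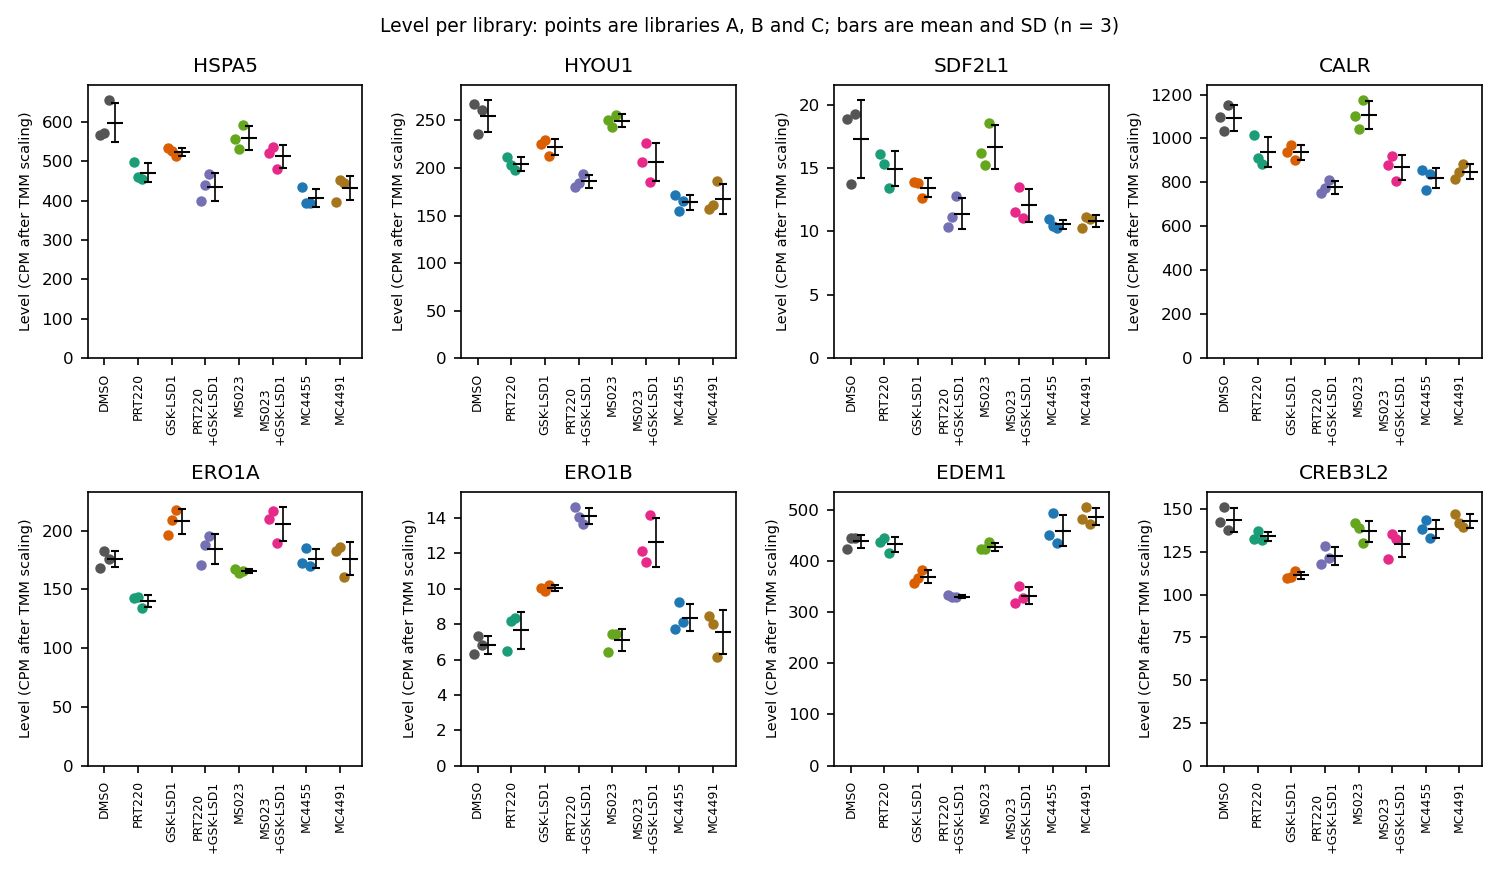
CPM of 8 members in each of the 24 libraries, by group, with bars for the group mean and SD (n = 3). HSPA5, HYOU1, SDF2L1 and CALR are lower than DMSO in the PRT220 and GSK-LSD1 combination and in the MC groups, ERO1B is highest with PRT220 and GSK-LSD1 together, and EDEM1 is lowest in the 3 groups with GSK-LSD1.

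Partners of BiP followed the same direction. With PRT220, 3 of 5 were lower (11.1% of all genes), and with GSK-LSD1 4 of 5 (15%). The count was 3 of 5 with both (22.1%) and 5 of 5 with MC4455 (19.2%). SDF2L1, which keeps unfolded clients soluble beside the J protein DNAJB11 (chr22:21642261-21644298), had the largest falls of all members with MC4455, with MC4491 and with PRT220 and GSK-LSD1 together. It measured 18.87, 13.71 and 19.23 CPM in DMSO, 10.32, 11.12 and 12.78 CPM with PRT220 and GSK-LSD1, 10.96, 10.4 and 10.3 CPM with MC4455, and 10.31, 11.15 and 10.99 CPM with MC4491. DMSO B was well below the other controls, yet above every library of these 3 groups. The fall was −0.71 (SE 0.12, adjusted p = 0.000117, edgeR) with MC4455, −0.67 with MC4491 and −0.59 with the combination. PRT220 alone gave −0.21 (adjusted p = 0.207, edgeR, not called), but −0.36 without DMSO B (adjusted p = 0.0144, edgeR) and −0.36 with a term for low-RRP9 libraries (adjusted p = 0.0130, edgeR).

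MANF, a BiP-binding factor that is also secreted, fell in 6 treatments, likewise all but MS023. Its counts were 33.76, 33.32 and 36.15 CPM in DMSO, 29.34, 25.3 and 25.29 CPM with PRT220, and 21.31, 23.58 and 24.68 CPM with MC4491, so that the groups did not overlap. The differences were −0.37 (SE 0.08, adjusted p = 0.000996, edgeR) with PRT220 and −0.57 with MC4491. DNAJC3, a J protein that hands clients to BiP, differed little within groups. It stood at 172.5, 172.9 and 172.5 CPM in DMSO, 157.8, 151.9 and 160.6 CPM with MS023, and 132.2, 131.9 and 130.4 CPM with MC4455. DNAJC3 was the only member called with MS023, at −0.14 (adjusted p = 0.0356, edgeR), and 10 of 14 alternative settings lost that call.

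DNAJB9, a J protein that targets clients to ERAD, was less stable. DMSO gave 19.61, 24.27 and 25.48 CPM, PRT220 19.16, 19.23 and 17.08 CPM, and GSK-LSD1 17.76, 18.75 and 18.2 CPM. Every treated library lay below DMSO A, some only just. The PRT220 difference of −0.32 (adjusted p = 0.0415, edgeR) was lost in 6 of 13 alternatives, and the GSK-LSD1 difference of −0.34 in 5 of 13, including the one without low-RRP9 libraries. By edgeR with all libraries, DNAJB11 was called only with MC4455 (−0.31) and MC4491 (−0.25), among the treatments set against DMSO. It was also called with MS023 and GSK-LSD1 together when library A of that combination was left out (−0.21).

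CALR, which holds sugar-tagged proteins while they fold (chr19:12938578-12944489), fell in 6 of 7 treatments. The DMSO libraries held 1097, 1032 and 1150 CPM and the PRT220 libraries 1014, 912.5 and 886 CPM. GSK-LSD1 gave 936.8, 971.6 and 901.6 CPM, and both compounds 752.1, 773.8 and 810.7 CPM. The combination libraries were all below every library of either compound alone. The log2 fold change was −0.22 with each single compound (adjusted p = 0.0100 and 0.00709, edgeR) and −0.49 (SE 0.06, adjusted p = 1.22e-06, edgeR) with both. The PRT220 call was lost when PRT220 C was left out and among low-RRP9 libraries alone (−0.31).

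CANX, its membrane-bound relative, could not be compared. It ranged from 61.4 to 199 CPM over the 24 libraries with a coefficient of variation of up to 56.7% within a group. Of its counts, 97.58% were assigned to 1 transcript, CANX-209, while the full-length CANX-201 was listed at 0 in every library. Its gene count is therefore uncertain, including the difference of 1.04 between MS023 with GSK-LSD1 and GSK-LSD1 (adjusted p = 0.0369, edgeR).

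Among the isomerases and oxidases, PDIA6 and PDIA4 moved with the chaperones. PDIA4, an isomerase with several thioredoxin-like domains, held 278.5, 252.2 and 279.6 CPM in DMSO, 235.8, 214.2 and 205.4 CPM with PRT220, and 190.4, 174.9 and 184.1 CPM with MC4455. The 3 groups did not overlap, and MC4455 libraries were lowest. PDIA4 fell by 0.31 with PRT220, 0.42 with the combination and 0.56 with MC4455 on the log2 scale. It did not pass the test with GSK-LSD1 (−0.14, adjusted p = 0.122, edgeR). P4HB fell only modestly, by 0.17 with GSK-LSD1, 0.29 with the combination and 0.18 with MC4455, and PPIB, a proline isomerase, was called with MC4455 (−0.32) and MC4491 (−0.28). PDIA6, the isomerase with an ERSE match, fell by 0.14 with PRT220, 0.23 with GSK-LSD1 and 0.41 with both. Its PRT220 call was lost in 4 of 13 alternatives. PDIA3, which works beside CALR on glycoproteins, fell by 0.15 with GSK-LSD1, 0.27 with both and 0.36 with MC4455. Its GSK-LSD1 call was lost in 4 of 13 alternatives. CRELD2, an ER protein that is induced by stress, fell with PRT220 and GSK-LSD1 together (−0.26), MS023 and GSK-LSD1 together (−0.29), MC4455 (−0.36) and MC4491 (−0.30). The CRELD2 call was lost in 3 of 14 alternatives with the PRT220 combination, 2 of 14 with the MS023 combination and 2 of 13 with MC4491.

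Both oxidases rose with GSK-LSD1. ERO1A (chr14:52639916-52695900) stood at 168.5, 182.8 and 176.1 CPM in DMSO, 142.6, 143.4 and 133.9 CPM with PRT220, and 196.6, 208.7 and 217.7 CPM with GSK-LSD1. PRT220 libraries were all below, and GSK-LSD1 libraries all above, the controls. With both compounds it measured 170.6, 187.8 and 195.3 CPM, which overlaps the controls. ERO1A fell by 0.33 with PRT220 (SE 0.06, adjusted p = 0.000412, edgeR), rose by 0.24 with GSK-LSD1 (SE 0.06, adjusted p = 0.00424, edgeR) and differed by 0.07 with both (adjusted p = 0.372, edgeR, not called).

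ERO1B (chr1:236215555-236281985) showed the largest rise of the 33 genes. DMSO held 6.33, 7.33 and 6.82 CPM, and PRT220 6.45, 8.15 and 8.33 CPM. GSK-LSD1 held 10.1, 9.86 and 10.2 CPM, and both compounds 14.6, 14.1 and 13.7 CPM. The DMSO and PRT220 libraries overlapped, GSK-LSD1 lay above both, and the combination lay above GSK-LSD1. ERO1B rose by 0.56 with GSK-LSD1 (SE 0.11, adjusted p = 0.000709, edgeR), 0.88 with MS023 and GSK-LSD1 (adjusted p = 2.58e-06, edgeR) and 1.05 with PRT220 and GSK-LSD1 (SE 0.11, adjusted p = 2.13e-07, edgeR). Its promoter carries the same ERSE letters as those of HSPA5 and CALR, which fell, and any part of the element was not tested.

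The ERAD group was mixed. Of its 9 members none was called with PRT220 (11.1% of all genes lower and 13.8% higher). GSK-LSD1 lowered 2 and raised 1, near the shares over all genes (15% and 17.6%). HERPUD1, which assembles the ligase complex, held 72.84, 84.85 and 80.96 CPM in DMSO, 95.97, 96.16 and 104.4 CPM with GSK-LSD1, and 101.3, 105.7 and 101.4 CPM with MS023 and GSK-LSD1. Both groups lay above all controls. The log2 fold change was 0.31 with GSK-LSD1 (SE 0.05, adjusted p = 3.91e-05, edgeR), 0.23 with PRT220 and GSK-LSD1 and 0.37 with MS023 and GSK-LSD1. The ERSE-II carriers SDF2L1 and HYOU1 moved the other way in the same 3 groups. With GSK-LSD1 alone, 5 of 13 alternatives lost the call of each. Any part of the element was not tested. SYVN1, the ubiquitin ligase itself, was called higher with the 2 combinations (0.13 and 0.14), and at least 9 of 14 alternatives lost each call.

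EDEM1 and EDEM3 trim mannose from misfolded glycoproteins and so mark them for disposal. EDEM1 measured 424.2, 445.6 and 444.3 CPM in DMSO, 357.4, 366.2 and 382.7 CPM with GSK-LSD1, 333.3, 328.8 and 328.8 CPM with PRT220 and GSK-LSD1, and 317.9, 350 and 327.5 CPM with MS023 and GSK-LSD1. PRT220 alone gave 437.4, 444.6 and 415.5 CPM, within or just under the range of the controls. The difference was −0.25 (SE 0.04, adjusted p = 0.000168, edgeR) with GSK-LSD1, −0.41 and −0.40 with its combinations, −0.02 with PRT220, and 0.15 with MC4491 (adjusted p = 0.0146, edgeR), the one member that rose there.

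EDEM3 held 241.6, 221 and 209.4 CPM in DMSO, 174.4, 181.7 and 165.1 CPM with GSK-LSD1, and 155.3, 155 and 149.3 CPM with MS023 and GSK-LSD1. None of the GSK-LSD1 libraries reached the controls. The fall was −0.37 with GSK-LSD1 and −0.55 (SE 0.05, adjusted p = 1.56e-08, edgeR) with MS023 and GSK-LSD1. SEL1L, DERL1, DERL2, EDEM2 and OS9, which form or feed the channel of the ligase complex, were not called in any treatment against DMSO by edgeR with all libraries. SEL1L was called with MS023 and GSK-LSD1 by DESeq2 (−0.10), without low-RRP9 libraries (−0.16), without DMSO C (−0.13) and without combination B (−0.11), and with PRT220 without DMSO A (0.13).

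All 4 translocon members fell with MC4455 and with MC4491 (19.2% and 15.2% of all genes lower). SEC61A1 and SEC61B, the pore and a small subunit of the SEC61 channel, were called with MC4455 (−0.25 and −0.26) and MC4491 (−0.21 and −0.30). Neither was called in another treatment by edgeR with all libraries. With PRT220 and GSK-LSD1 together, SEC61A1 differed by −0.11 (adjusted p = 0.0684, edgeR, not called). It was called there by DESeq2 (−0.13), without low-RRP9 libraries (−0.15) and with a term for them (−0.11), among other settings. SEC61B was 26.81, 29.37 and 29.38 CPM in DMSO and 23.04, 23.74 and 22.77 CPM with MC4491, without overlap. SSR1 and SSR3, of the translocon-associated protein complex, fell with PRT220 by 0.17 and 0.16, and with MC4455 by 0.37 and 0.34 on the log2 scale.

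CREB3L2 is a membrane-held factor that is cut free under ER stress and drives secretory genes (chr7:137874979-138002067, minus strand). It measured 142.3, 151.1 and 137.7 CPM in DMSO, 109.8, 110.4 and 113.9 CPM with GSK-LSD1, 118, 128.4 and 121.4 CPM with PRT220 and GSK-LSD1, and 121, 135.2 and 132.4 CPM with MS023 and GSK-LSD1. The GSK-LSD1 libraries were the lowest, and those of both combinations lay between them and the controls. The difference was −0.37 (SE 0.05, adjusted p = 2.2e-06, edgeR) with GSK-LSD1 and −0.23 with PRT220 and GSK-LSD1. Both combinations were higher than GSK-LSD1 alone, by 0.14 (adjusted p = 0.0472, edgeR) and 0.22 (adjusted p = 0.00611, edgeR).

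The series' design asks what the combination of PRT220 and GSK-LSD1 changes beyond either compound. Against PRT220, the combination lowered 13 members and raised 3, beside 18.8% and 19.4% of all genes. ERO1B (0.89) and ERO1A (0.40) rose most, and SDF2L1 and EDEM1 (both −0.39) fell most. Against GSK-LSD1 it lowered 7 members and raised 2, beside 8.34% and 7.01% of all genes. Those 7 were HSPA5 (−0.27), HYOU1 (−0.26), DNAJC3 (−0.16), CALR (−0.27), PDIA4 (−0.28), PDIA6 (−0.18) and EDEM1 (−0.16), and the 2 were ERO1B (0.49) and CREB3L2 (0.14). The first count fell to 8 of 16 without PRT220 A and to 7 without combination A, and the second to 5 of 9 without GSK-LSD1 B. With a term for low-RRP9 libraries, which include all PRT220 libraries, the first count was 7 and the second 17.

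The interaction term asks whether the combined change departs from the sum of the single changes on the log2 scale. No member was called by edgeR (0.541% of all genes were), and 5 had an unadjusted p below 0.05, namely CREB3L2, DNAJB9, EDEM1, HERPUD1 and MANF. CREB3L2 had the smallest adjusted p, at an interaction of 0.24 (SE 0.07, adjusted p = 0.126, edgeR), and DESeq2 called CREB3L2 alone (adjusted p = 0.0203). For ERO1B the interaction was 0.33 (SE 0.16, adjusted p = 0.511, edgeR), and for HSPA5 it was 0.08 (SE 0.10, adjusted p = 0.856, edgeR).

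The same comparisons were made for MS023. Adding GSK-LSD1 to it lowered 8 members and raised 4, beside 20% of all genes in each direction. The lower count is near that share and the higher one below it. ERO1B (0.83) and ERO1A (0.31) were highest and SDF2L1 (−0.47) and EDEM3 (−0.42) lowest. Against GSK-LSD1 alone, the MS023 combination was lower in 3 members and higher in 2, near the shares over all genes (7.5% and 3.37%). EDEM3 stood at −0.18 and EDEM1 at −0.15. The 2 higher members were CREB3L2 and CANX, and the gene count of CANX is uncertain. The count of both directions moved to 1 without GSK-LSD1 A or B or combination C. It moved to 2 without GSK-LSD1 C or combination A. Its interaction called no member (0% of all genes), with 2 members, CREB3L2 and MANF, at an unadjusted p below 0.05, and DESeq2 again called CREB3L2 alone (adjusted p = 0.0158). Set side by side with MS023, PRT220 was lower in 7 members and higher in 2 (10.6% and 15.1% of all genes), led by HYOU1 (−0.29), HSPA5 (−0.25) and ERO1A (−0.24) below and by SEL1L (0.20) and OS9 (0.15) above.

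MC4455 and MC4491 libraries were also set against GSK-LSD1 libraries, a comparison added after the data were seen. MC4455 was lower in 19 members and higher in 2 (19.5% and 13.8% of all genes), and MC4491 was lower in 15 and higher in 3 (18.8% and 14.2%). EDEM1 and CREB3L2 were higher with both MC compounds than with GSK-LSD1, by 0.32 and 0.31 with MC4455 and by 0.40 and 0.36 with MC4491. HYOU1 was lower by 0.44 and 0.41, and HERPUD1 by 0.20 and 0.23, in the same order. Doses of the MC compounds were not known here, so these are differences between groups of libraries as labelled.

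Members with a promoter element were compared with those without. With MC4455, 7 of the 10 members that carry ERSE or ERSE-II were lower (median −0.37). So were 13 of the 21 without either (median −0.26), beside 19.2% of all genes. With PRT220 and GSK-LSD1 together, 7 were lower and 2 higher of the 10 carriers (median −0.35). Of the 21 others, 10 were lower and 1 higher (median −0.13), beside 22.1% and 24.4% of all genes. With PRT220 alone, 4 of the 10 carriers (median −0.17) and 8 of the 21 others (median −0.10) were lower, beside 11.1% of all genes. The 10 carriers include CANX, whose gene count is uncertain. Outside the list, 34 genes held either element and 21 of those were tested. With MC4455, 8 of the 21 were lower, beside 19.2% of all genes, and 3 higher (median −0.11). The combination of PRT220 and GSK-LSD1 lowered 9 and raised 4 of them (median −0.09), beside 22.1% and 24.4% of all genes. PRT220 alone lowered 2, near the 11.1% of all genes, and raised 1 (median −0.03).

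Some members changed in the mix of their transcripts. Of 31 members with more than 1 transcript tested, 6 were called with PRT220 (limma's diffSplice with Simes adjustment), where 16.2% of all tested genes were. The numbers were 7 with the combination (19.6%), 3 with GSK-LSD1 (5.27%), 2 with MS023 (4.38%) and 4 with MS023 and GSK-LSD1 (13.4%). They were 5 with MC4455 (14.9%) and 5 with MC4491 (12.3%). Most of these counts lie near the share over all tested genes, so a changed mix was not particular to the members. OS9, a lectin that delivers glycoproteins to the ligase, was not called in total but had the smallest p of these (adjusted p = 2.86e-08 with PRT220, limma).

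The protein-coding transcript OS9-203 made up 12.22%, 11.87% and 12.48% of the OS9 gene in DMSO, and 8.09%, 6.59% and 3.59% with PRT220. OS9-223, annotated as a retained intron, made up 2.80%, 3.53% and 2.31% in DMSO, 6.62%, 7.12% and 7.11% with PRT220, and a mean of 6.94% with the combination. The PRT220 libraries thus lay wholly below for OS9-203 and wholly above for OS9-223. With GSK-LSD1 and MS023, OS9-223 averaged 3.28% and 3.26%. OS9-203 was below the lowest DMSO library in every library of all 7 treatments, with means from 5.78% with MC4455 to 10.4% with GSK-LSD1, and relative to its gene it passed the test in all but GSK-LSD1 (−1.20 with PRT220, −1.22 with MC4455 and −0.82 with MS023, limma).

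P4HB-218, also a retained intron transcript, made up 2.10%, 2.17% and 2.14% of P4HB in DMSO, 3.43%, 3.86% and 4.29% with PRT220 and 3.47%, 3.36% and 3.65% with MC4455. The 2 treated groups lay above every control. Relative to its gene it was higher by 0.86 with PRT220 (adjusted p = 0.000441, limma), 0.87 with the combination and 0.71 with MC4455 on the log2 scale. SSR3-206 fell from 3.74%, 3.22% and 1.99% of SSR3 in DMSO to 0.981%, 0.147% and 0.546% with PRT220. ERO1A-211 was listed at 0 in DMSO A, made up 1.68% and 5.79% of ERO1A in DMSO B and C, and reached 11.9%, 10.3% and 11.7% with PRT220, where ERO1A fell in total. These shares rest on the authors' assignment of reads among overlapping transcripts.

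Between treatments, the transcript mix of 5 members differed when PRT220 was added to GSK-LSD1 (8.7% of all tested genes; SSR1, EDEM2, SEC61A1, OS9 and P4HB), and of 1, P4HB, when GSK-LSD1 was added to PRT220 (5.79%). MS023 with GSK-LSD1 differed from GSK-LSD1 in 4 (4.44%; SSR1, HSP90B1, OS9 and ERO1A) and from MS023 in 1, ERO1A (4.19%). PRT220 differed from MS023 in 5 (14.8%; OS9, SSR3, EDEM2, P4HB and HSP90B1). The interaction with GSK-LSD1 was called in 3 members for PRT220 (3.14%; ERO1A, SYVN1 and SSR1) and in 2 for MS023 (3.7%; SSR1 and ERO1A). SSR1-209 and ERO1A-211, which lead the calls of their genes, were each listed at 0 in at least 1 library.

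**Figure D4:**
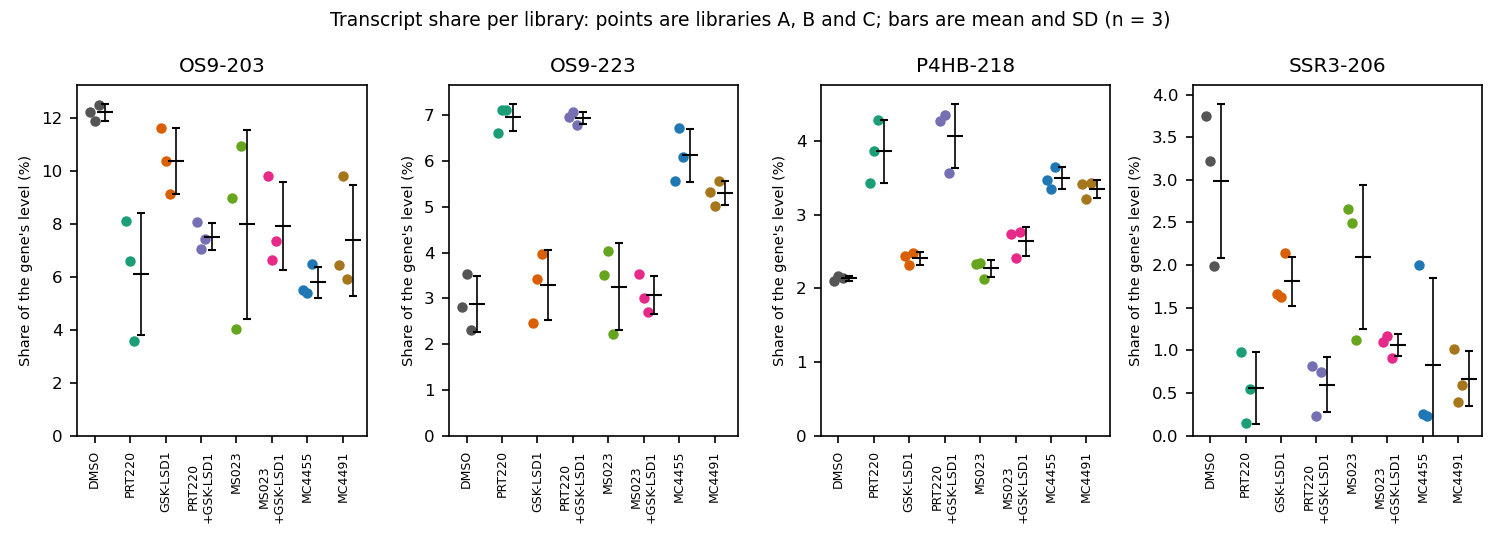
Share of its gene held by 4 transcripts in each library, in percent, by group, with bars for the mean and SD (n = 3; an SD that would reach below 0 ends at the axis). OS9-223 and P4HB-218 are higher in the PRT220, combination, MC4455 and MC4491 groups than in DMSO, and OS9-203 and SSR3-206 are lower with PRT220.

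The genes upstream of the members were read from a list of 15 ER stress sensors and their factors. PRT220 lowered 5 and raised 1 (11.1% and 13.8% of all genes), and GSK-LSD1 lowered 6 and raised 1 (15% and 17.6%). The combination lowered 10 and raised 1 (22.1% and 24.4%), MC4455 lowered 9 (19.2%) and MC4491 lowered 6 (15.2%). DDIT3 (CHOP), the factor that promotes death under lasting stress, ranged from 11.9 to 19.4 CPM in DMSO, 6.79 to 8.58 CPM with PRT220 and 6.80 to 7.35 CPM with the combination. It fell by 1.05 (SE 0.16, adjusted p = 5.87e-05, edgeR) with PRT220, 0.68 with GSK-LSD1, 0.95 with MS023 and GSK-LSD1 and 0.87 with MC4455. XBP1, the factor that IRE1 activates, ranged from 517.8 to 583.6 CPM in DMSO and from 400.2 to 462.7 CPM with PRT220, a fall of 0.36. ERN1, which encodes IRE1, fell by 0.58 with GSK-LSD1 and 0.65 with the combination. ATF4 fell by 0.55 with the combination and 0.45 with MC4455.

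Monocyte and macrophage markers moved with the GSK-LSD1 groups. The summed level of 9 such genes was 1151 to 1173 CPM in DMSO, 2788 to 2934 CPM with GSK-LSD1, 2339 to 2538 CPM with PRT220 and GSK-LSD1, and 2168 to 2499 CPM with MS023 and GSK-LSD1, but 1288 to 1435 CPM with MC4455. MRC1 stayed below 0.1 CPM in every library, and CD163 did so in every group without GSK-LSD1. Of 6 markers of plasma cells, a type rich in ER, 2 reached 1 CPM, and the summed level was 31.6 to 40.2 CPM in DMSO, 65.0 to 69.0 CPM with PRT220 and 64.4 to 68.4 CPM with MC4455, with JCHAIN and TNFRSF17 below 0.1 CPM throughout. The part of these differences in the members' changes was not tested.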

How the data were processed

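RNA-seq libraries of 24 MV4-11 samples (8 groups of 3) were read from the authors' deposited tables of genes and transcripts. The unit, estimated counts that need not be whole, was read from the deposited values. The submitters' processing notes name the build GRCh38 and, with no role or order, DESeq2 1.28.1, R 4.0.0, STAR 2.7.3a and Salmon 1.2.1. Gene counts were rounded, filtered with filterByExpr, scaled by TMM and fitted with edgeR 4.0.16 (glmQLFit and glmQLFTest, R 4.3.3) over all 24 libraries with 1 coefficient per group. P-values were adjusted over all 16640 genes. CPM are TMM-scaled. TPM and transcript shares come from the 167049 of 178398 transcripts paired with GENCODE 29, and transcript usage was tested with limma 3.58.1 (voom, diffSplice). Both tests were tested on simulated data. The members, the other lists and the named genes were chosen with earlier results of these data known. Members named in full are HSPA5, HSP90B1, CALR, DNAJB9, HERPUD1, SDF2L1, ERO1A and CREB3L2, those with the largest called changes (up to 4 per direction for PRT220, GSK-LSD1 and both, 2 elsewhere), and, chosen after their values were seen, PDIA4, SEC61B and the transcripts shown. Other pathway genes were limited to the 3 largest called changes per list. Alternatives were RLE scaling, no filter, the compared groups alone, a replicate block, a term for or exclusion of low-RRP9 libraries (under 10 CPM before scaling), each library left out, and DESeq2 1.42.0.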

Additional observations from a re-analysis of the deposited data

How the results depend on the processing

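No called member reversed under any alternative. Among called members set against DMSO, calls were kept in 140 and lost in 16 member-by-setting cases for PRT220, 222 and 25 for GSK-LSD1, 275 and 19 for PRT220 with GSK-LSD1, 225 and 27 for MS023 with GSK-LSD1, 264 and 9 for MC4455, and 249 and 11 for MC4491. Among low-RRP9 libraries alone, where DMSO and both combinations keep 1 library each, assumed to vary like the other groups, PRT220 called 7 members, MS023 0, MS023 with GSK-LSD1 8, PRT220 with GSK-LSD1 against PRT220 5, and MS023 with GSK-LSD1 against MS023 7. Without them, MS023 keeps only library B, under the same assumption, and called 0, MS023 with GSK-LSD1 7 against MS023 and 9 against GSK-LSD1, and GSK-LSD1 13 against DMSO, all 13 among its 19. That exclusion could not be run for PRT220, which keeps no library. A term for them gave 3 for MS023, 7 for PRT220 with GSK-LSD1 against PRT220 and 17 against GSK-LSD1, 9 for MS023 with GSK-LSD1 against GSK-LSD1, and 8 transcript usage calls for MS023 with GSK-LSD1. MS023 called 0 with no filter and with its groups alone and 2 with DESeq2. MS023 with GSK-LSD1 against GSK-LSD1 called 3 with RLE scaling, with no filter and with its groups alone. DESeq2 called 1 member in each interaction. The cause of these differences was not tested. Leaving out 1 library at a time gave 8 to 14 members for PRT220, 13 to 19 for GSK-LSD1, 19 to 21 for both, 0 to 1 for MS023 (0 without any DMSO library or MS023 A or B), 13 to 19 for MS023 with GSK-LSD1, 19 to 22 for MC4455 and 17 to 20 for MC4491. PRT220 with GSK-LSD1 gave 7 to 15 against PRT220 and 5 to 9 against GSK-LSD1. MS023 with GSK-LSD1 gave 10 to 17 against MS023 and 1 to 5 against GSK-LSD1. PRT220 against MS023 gave 6 to 12, MC4455 against GSK-LSD1 15 to 21 and MC4491 against GSK-LSD1 12 to 16, and both interactions 0 to 0. The replicate letters showed no sign of pairing the libraries. Deviations from group means correlated with r from −0.417 to 0.328 for same-letter libraries (median 0.00186, 84 pairs). For libraries of different letters, r ran from −0.39 to 0.435 (median −0.00491, 168 pairs). The low-RRP9 difference was not removed from these deviations and may hide a weak pairing. With the replicate block, PRT220 called 12 members, GSK-LSD1 19, both 22, MS023 with GSK-LSD1 18, MC4491 20, MC4455 21 and MS023 0. After CANX, ERO1B, DNAJB9 and SDF2L1 had the largest standard errors with PRT220.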

Other observations

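Genes of neighbouring pathways were read from lists chosen with earlier results of these data known. Over all tested genes, edgeR called 11.1% lower and 13.8% higher with PRT220, 15% and 17.6% with GSK-LSD1, 22.1% and 24.4% with both, 19.2% and 18.5% with MC4455, and 15.2% and 15.5% with MC4491, and the counts that follow stand beside these shares. Of 31 other folding enzymes, PRT220 lowered 7 and raised 3, GSK-LSD1 lowered 11 and raised 3, and MC4455 lowered 16 and raised 4 (edgeR, adjusted p below 0.05). CNPY3, a chaperone of Toll-like receptors, rose from 58.9 to 62.3 CPM in DMSO to 105.4 to 113.3 CPM with PRT220, a log2 change of 0.84. FKBP11, a proline isomerase of secretory cells, rose by 0.71 with the PRT220 combination and 0.71 with MC4455. Of 25 other ERAD genes, GSK-LSD1 lowered 5 and raised 2, near the share over all genes for the lower ones. Among them, ERLIN1, which recruits a ligase to ERAD substrates, went from 134.5 to 155 CPM in DMSO to 81.3 to 85.3 CPM with GSK-LSD1, a fall of 0.76, and UBE2J1, a ubiquitin-conjugating enzyme of the ER membrane, fell by 0.66. AUP1, which binds that machinery at lipid droplets and the ER, rose by 0.60 with PRT220.

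Of 11 subunits of the oligosaccharyltransferase, which attaches sugars to entering chains, 8 were lower with MC4455, 8 with MC4491, 7 with the PRT220 combination and 4 each with PRT220 and GSK-LSD1. OSTC (−0.41) and RPN2 (−0.37) led with PRT220. Of 21 genes of translocation and signal peptide removal, MC4455 lowered 13 and raised 1, and GSK-LSD1 lowered 5 and raised 4, with TRAM2 up by 0.66. SPCS3, a signal peptidase subunit, fell by 0.46 with both PRT220 and MC4455. Outside the ER, 12 of 13 cytosolic and mitochondrial chaperones were lower with MC4455, 10 with the PRT220 combination, 3 with PRT220 and 4 with GSK-LSD1. HSPA8, the constitutive cytosolic HSP70, ranged from 1403 to 1722 CPM in DMSO and 1003 to 1187 CPM with MC4455.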
